A study of Mus musculus with 38 samples.

Results

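Cytochrome P450 enzymes of the CYP2A, CYP2D, CYP2F, CYP2G, CYP2J and CYP2U subfamilies were examined in the livers of mice fed a triazole fungicide or phenobarbital. The genes were chosen by symbol: Cyp2a5, Cyp2a12, Cyp2g1, Cyp2f2, Cyp2d9, Cyp2d10, Cyp2d22, Cyp2d26, Cyp2j5 and Cyp2u1. Of these 10 genes, 9 had a probe set annotated to them alone, out of 17729 genes tested. The tenth, Cyp2a5, was annotated only through a probe set that also lists Cyp2a4, and that probe set is described separately and given to neither gene.

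The mice were males of the outbred CD-1 stock, 6 to 8 weeks old, and each of the 38 arrays held the liver RNA of 1 biological replicate. In the conazole experiment mice received propiconazole at 2500 ppm, triadimefon (spelled tridimefon in the labels) at 1800 ppm or control feed for 4 or 30 days, with 3 replicates in each of 6 groups. In the phenobarbital experiment mice received phenobarbital at 850 ppm or control feed for 4 or 30 days, with 5 replicates in each of 4 groups. The average daily intakes were 349.6 ± 46.7 mg/kg of propiconazole, 257.1 ± 33.5 mg/kg of triadimefon and 97.2 ± 5.9 mg/kg of phenobarbital, so the doses were not matched. Each compound was compared with the controls of its own experiment and day. Between the experiments, treatment and array batch cannot be told apart.

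P450 enzymes are heme proteins of the endoplasmic reticulum that insert an oxygen atom into lipids, steroids and foreign compounds, with electrons delivered by P450 oxidoreductase and cytochrome b5. In liver, the CYP2B and part of the CYP2C enzymes are strongly induced when the nuclear receptor CAR is activated, for which phenobarbital is the classical agent in rodents. The CYP2D, CYP2F and CYP2J enzymes are regarded as largely constitutive, and several mouse CYP2A and CYP2D enzymes differ in level between the sexes. Triazole fungicides bind the heme iron of fungal sterol demethylase and are also ligands of mammalian P450 enzymes.

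The measured genes lie in clusters of related enzymes. In the RefSeq gene order of GRCm38.p6 on chromosome 7, Cyp2g1 is followed by Cyp2a5, Cyp2a22, Cyp2a12, Cyp2f2 and Cyp2t4 with no other protein-coding gene between them. Cyp2a4 lies apart from them, between Vmn1r184 and Nlrp9c. On chromosome 15, Cyp2d22, Cyp2d11, Cyp2d10 and Cyp2d9 are consecutive protein-coding genes, and Cyp2d26 follows Cyp2d40. RefSeq promoter windows (GRCm38.p6) from 250 bases before to 50 bases after the start site were at hand for 7 of the 10 genes. Those of Cyp2a5 and Cyp2a4 are shown because the array measured both through 1 probe set, and that of Cyp2a12, the other CYP2A gene measured, is shown beside them. The windows are chr7:26835089-26835388 for Cyp2a5, chr7:26306942-26307241 for Cyp2a4 and chr7:27028840-27029139 for Cyp2a12, all on the plus strand. Capitals mark TATAAA, the TATA box, and CAAAGTCC, part of the usual motif of the liver factor HNF4A. Both were searched on both strands and do not overlap.
Cyp2a5: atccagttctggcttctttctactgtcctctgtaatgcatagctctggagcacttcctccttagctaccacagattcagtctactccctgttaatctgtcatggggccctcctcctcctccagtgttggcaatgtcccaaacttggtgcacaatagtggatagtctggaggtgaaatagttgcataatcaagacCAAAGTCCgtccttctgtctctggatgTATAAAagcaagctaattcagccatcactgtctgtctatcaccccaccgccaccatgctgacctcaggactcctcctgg
Cyp2a4: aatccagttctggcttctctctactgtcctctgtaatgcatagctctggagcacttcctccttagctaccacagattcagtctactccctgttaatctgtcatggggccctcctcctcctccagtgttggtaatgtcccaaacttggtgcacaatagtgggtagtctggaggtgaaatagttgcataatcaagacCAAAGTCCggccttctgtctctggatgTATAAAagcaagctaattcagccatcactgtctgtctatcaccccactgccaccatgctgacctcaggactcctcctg
Cyp2a12: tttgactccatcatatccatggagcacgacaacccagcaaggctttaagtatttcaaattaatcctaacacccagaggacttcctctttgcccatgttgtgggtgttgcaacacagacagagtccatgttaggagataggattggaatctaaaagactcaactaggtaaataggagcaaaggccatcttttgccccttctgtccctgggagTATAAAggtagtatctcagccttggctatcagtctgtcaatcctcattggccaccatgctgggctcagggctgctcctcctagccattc
Of 299 aligned bases, 294 (98.3%) were the same in the Cyp2a5 and Cyp2a4 windows, while the Cyp2a5 and Cyp2a12 windows shared 59.7%. TATAAA starts 29 bases before the start site in Cyp2a5, 28 before it in Cyp2a4 and 39 before it in Cyp2a12. CAAAGTCC stands 56 and 55 bases before the start site of Cyp2a5 and Cyp2a4 and is not in the Cyp2a12 window. Among all 32851 promoter windows of this length, 13.6% held TATAAA and 1.42% held CAAAGTCC.

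Values are log2(intensity + 16) after quantile normalization, so 4 is the lowest possible value. Changes are treated minus control values in these units and understate the change of dim genes. Background was set at a log2 value of 6.15, the 95th percentile of the mean values of 38 olfactory receptor genes. The feeding was visible in every treated group: Cyp2b10 and Cyp2c55, classical targets of CAR activators, were higher by 3.56 to 6.00 in all 6 comparisons of a compound with its controls. Hepatocyte markers were above background in all groups, with a summed intensity of 67385 to 81883 over the 9 measured. The array of propiconazole day 4 replicate 2 had a Gapdh signal that was 6.39 log2 units higher at the 3′ than at the 5′ end, against -0.37 to 0.22 on the other 37 arrays. Several results on propiconazole at day 4 are therefore also given without it. The 3′ excess of Actb was 0.62 to 1.84 on the conazole day 4 arrays, controls included, and 0.28 to 0.47 on all other arrays. Day 4 and day 30 arrays of the conazole experiment thus differed in this measure, and its part in the results was not tested.

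Most of the 9 measured genes passed the test with none of the 3 compounds. A gene passed at an adjusted p under 0.05, from limma fitted to all genes with Benjamini-Hochberg adjustment, and errors of changes are standard errors. With propiconazole at day 4, Cyp2u1 and Cyp2d26 fell and 0 of 9 rose, while 6.53% of all genes tested fell and 7.36% rose. At day 30 of propiconazole, Cyp2u1 fell and 0 of 9 rose (5.53% of all genes fell and 5.29% rose). With triadimefon Cyp2u1 fell and 0 of 9 rose at both days, while 1.65% of all genes fell and 2.1% rose at day 4, and 3% fell and 2.41% rose at day 30. With phenobarbital at day 4, Cyp2g1 rose and 0 of 9 fell (0.53% of all genes rose and 0.147% fell). At day 30 of phenobarbital 0 of 9 passed, while 0.395% of all genes rose and 0.0846% fell. At an unadjusted p under 0.05 stood 4 of 9 at day 4 of phenobarbital, beside 1709 of all 17729 genes, and 3 of 9 at day 30, beside 1186. The median change over the 9 genes was -0.0029, 0.03, 0.02, 0.01, 0.14 and 0.03 in propiconazole at days 4 and 30, triadimefon at days 4 and 30 and phenobarbital at days 4 and 30, while the median over all genes was 0.03 in propiconazole at day 4, -0.0016 in triadimefon at day 30 and 0 in the others. The arrays of treated and control livers did not overlap for 1 of the 9 genes in propiconazole day 4 livers (16.2% of all genes), 2 in propiconazole day 30 (24.4%), 1 in triadimefon day 4 (19.4%), 3 in triadimefon day 30 (21.1%), 2 in phenobarbital day 4 (5.1%) and 3 in phenobarbital day 30 livers (4.21%).

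**Figure D1:**
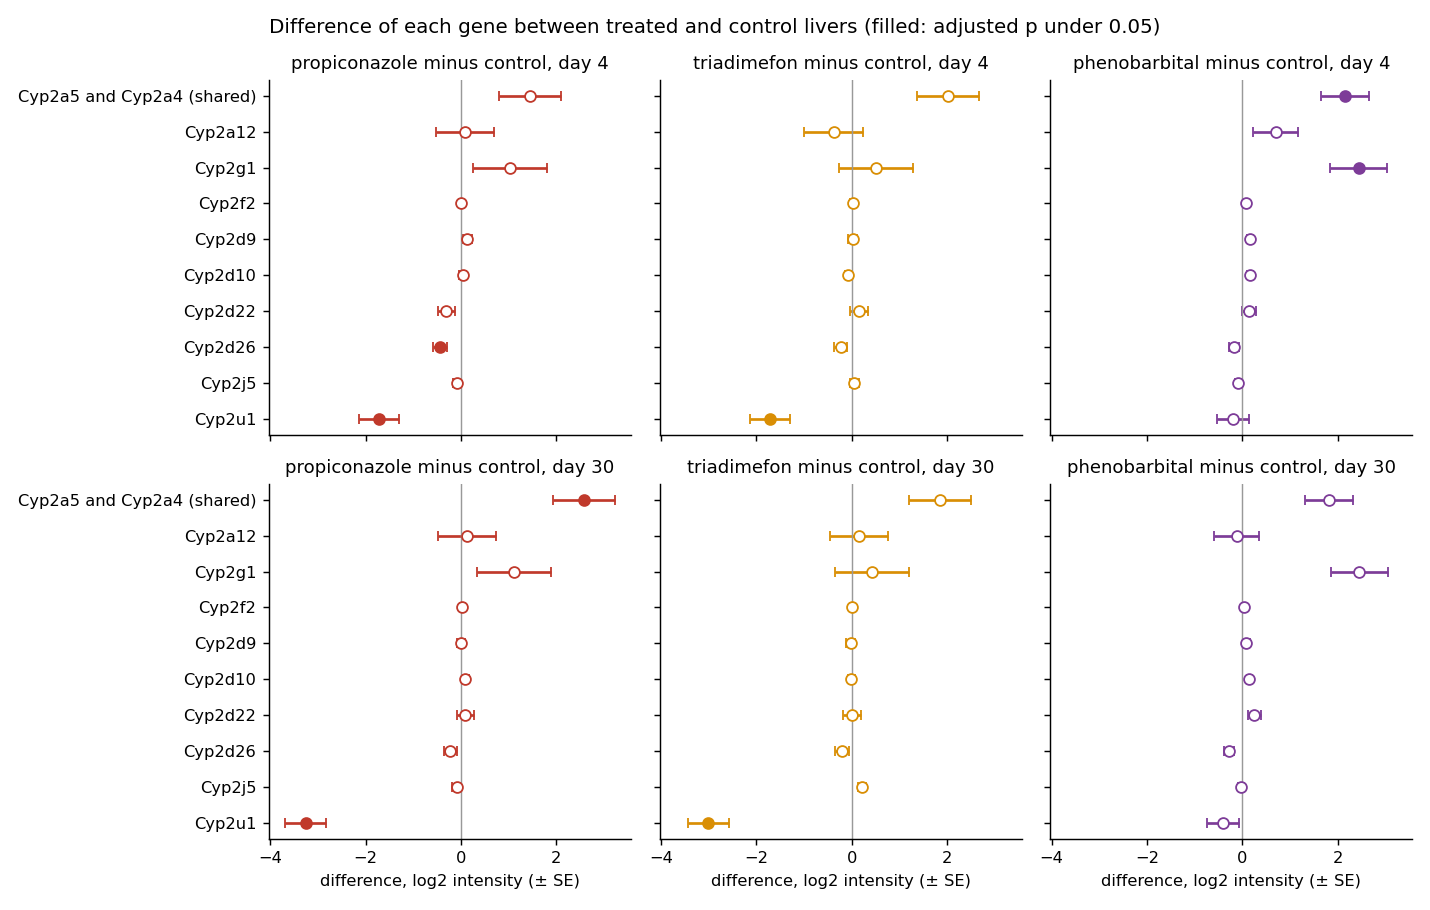
Difference between treated and control livers (x axis, log2 intensity, points with standard error) for the 9 genes and the probe set shared by Cyp2a5 and Cyp2a4 (y axis), one panel per compound and day, with filled points for an adjusted p under 0.05. Cyp2u1 lies left of 0 in all 4 conazole panels, by -1.71 to -3.26, and Cyp2g1 and the shared probe set lie right of 0 in all 6 panels, while Cyp2f2 stays within -0.0029 and 0.08.

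Cyp2u1, which encodes a hydroxylase of long-chain fatty acids that in human tissue is best known from brain and thymus, fell with both conazoles. At day 4 its values were 5.77, 5.88 and 6.79 in propiconazole livers, 6.00, 5.28 and 7.19 in triadimefon livers and 7.70, 7.50 and 8.38 in control livers. All 3 control arrays were higher than the treated ones, and 1 of 3 treated arrays of each compound was above background. The change was -1.72 ± 0.43 with propiconazole (adjusted p = 0.0075) and -1.71 ± 0.43 with triadimefon (adjusted p = 0.02). The group means were 6.15 ± 0.56 and 6.15 ± 0.96 under the conazoles and 7.86 ± 0.46 in controls (SD, n = 3 each). Without propiconazole day 4 replicate 2, the array with the Gapdh 3′ excess, the fall in propiconazole livers at day 4 was -1.58 ± 0.48 with an adjusted p of 0.038 in the fit on every probe set. The triadimefon day 4 call rests on few arrays: its adjusted p was 0.081 without control replicate 3, 0.091 without triadimefon replicate 1 and 0.13 without triadimefon replicate 2. When only the arrays compared entered the fit, neither day 4 fall passed, at an adjusted p of 0.39 for propiconazole and 0.29 for triadimefon. In that fit 7 of all 17729 genes were higher and 1 lower with propiconazole, and 0 passed with triadimefon, with 1742 and 2553 genes at an unadjusted p under 0.05, so it says little about Cyp2u1.

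After 30 days Cyp2u1 was below background in the livers of both conazole groups. The values were 5.18, 5.21 and 4.04 in propiconazole livers, 5.04, 5.46 and 4.68 in triadimefon livers and 8.41, 7.81 and 7.99 in control livers. All 6 conazole arrays lay under the lowest control array, and since none was above background the fold is a bound: Cyp2u1 was at least 3.77-fold lower with either conazole. The fitted change was -3.26 ± 0.43 with propiconazole (adjusted p = 7.4e-06) and -3.01 ± 0.43 with triadimefon (adjusted p = 6e-05), and it passed with any 1 array left out. The day 30 change minus the day 4 change was -1.54 ± 0.60 for propiconazole (adjusted p = 0.19) and -1.30 ± 0.60 for triadimefon (adjusted p = 0.32), so the difference between the days did not pass. Propiconazole minus triadimefon was -0.01 (95% interval -0.88 to 0.86) at day 4 and -0.25 (-1.12 to 0.62) at day 30.

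With phenobarbital, Cyp2u1 did not pass. At day 4 the values were 8.26, 7.82, 8.27, 6.89 and 6.67 in phenobarbital livers and 7.27, 7.27, 7.70, 8.23 and 8.41 in control livers, which overlap. After 30 days they were 7.51, 8.08, 8.05, 8.34 and 7.67 in phenobarbital livers and 8.36, 8.29, 8.51, 8.18 and 8.34 in control livers. The changes were -0.19 (95% interval -0.87 to 0.48) and -0.41 (-1.08 to 0.27), neither of which passed. After 30 days the propiconazole change minus the phenobarbital change was -2.85 ± 0.54 (adjusted p = 0.0059) and the triadimefon change minus the phenobarbital change -2.60 ± 0.54 (adjusted p = 0.023). Among the 9 genes, Cyp2u1 alone passed in these day 30 comparisons, in which 0.931% and 0.265% of all genes were lower. The triadimefon difference did not pass without conazole control day 30 replicate 1 (adjusted p = 0.056) or triadimefon day 30 replicate 3 (0.054). At day 4 the same differences were -1.52 ± 0.54 and -1.51 ± 0.54 (adjusted p = 0.13 and 0.27), with 0 of 9 genes past the threshold and 1.83% and 0.0451% of all genes. There 1 and 2 of the 9 had an unadjusted p under 0.05, beside 3166 and 1866 of all genes.

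**Figure D2:**
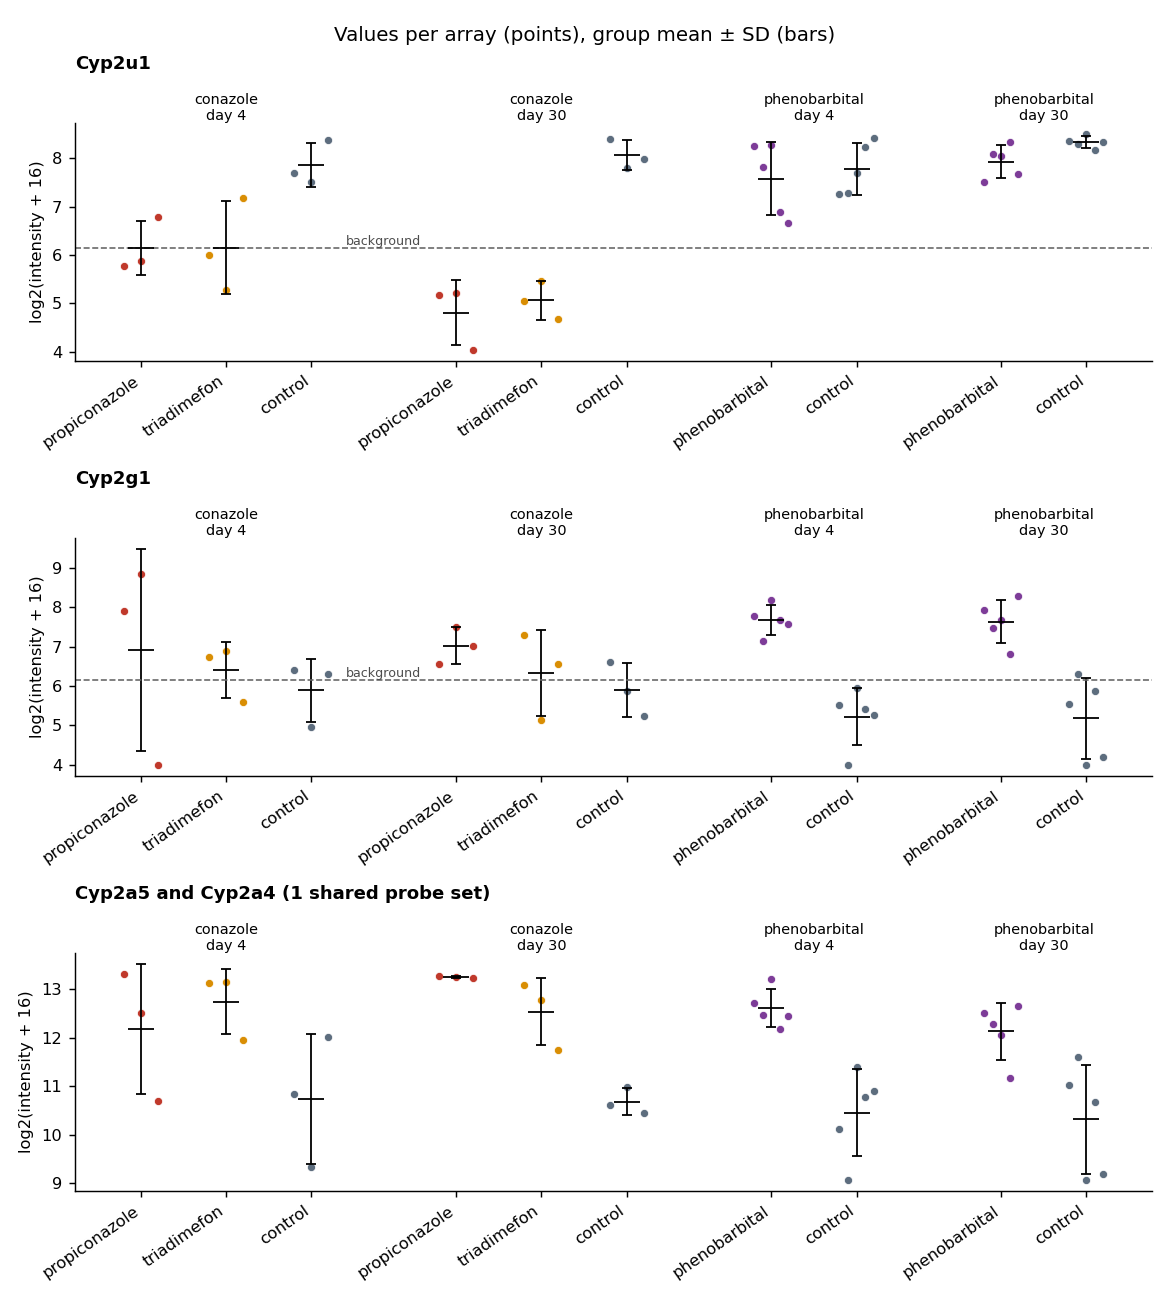
Values of Cyp2u1, Cyp2g1 and the probe set shared by Cyp2a5 and Cyp2a4 on each array (y axis, log2(intensity + 16), points) in the 10 groups (x axis), with the group mean ± SD as bars. The background of 6.15 is a dashed line in the panels of Cyp2u1 and Cyp2g1. All 6 day 30 conazole arrays of Cyp2u1 lie below background, all 10 phenobarbital arrays of Cyp2g1 lie above it, and the 3 propiconazole day 30 arrays of the shared probe set lie between 13.23 and 13.28.

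Markers of other liver cells also differed in the conazole groups. In propiconazole livers at day 30, 2 of 7 neutrophil markers were higher (summed intensity 1738 to 7105, against 230 to 357 in controls, where 5 of 7 were below background on every array) and 2 of 10 stellate cell markers lower (4034 to 4650, against 5571 to 8072). In triadimefon livers at day 30, 2 of 7 neutrophil markers (2159 to 8176, against 230 to 357 in controls) and 5 of 12 Kupffer cell and macrophage markers were higher (6486 to 20252, against 5472 to 7159). At day 4, 1 of 7 neutrophil markers was higher with propiconazole and 0 of 7 passed with triadimefon (summed intensity 450 to 17161 and 342 to 895, against 265 to 424 in controls), and without the array with the Gapdh 3′ excess 0 of 7 passed with propiconazole at day 4 and 4 of 7 were higher with triadimefon at day 30. Of 5 biliary markers, 2 were higher with propiconazole at day 30 (summed intensity 721 to 824, against 447 to 589 in controls, where 4 of 5 were below background on every array). At day 4, 2 of 5 were higher with propiconazole and 1 of 5 with triadimefon (495 to 578 and 496 to 678, against 346 to 410 in controls). Of 10 endothelial markers, 2 were lower with triadimefon at day 4 (1480 to 2343, against 1980 to 4026) and 2 higher at day 30 (2953 to 3262, against 3103 to 3396). At day 4, 1 of 10 stellate cell markers was lower with each conazole. With phenobarbital, 1 of 5 biliary markers was higher at day 4 (266 to 1007, against 227 to 266), and no marker of the other cell types named here passed at either day. Neutrophil markers summed to 397 to 942 in phenobarbital livers at day 30, against 199 to 250 in controls, with 0 of 7 past the threshold. The part of all these markers in the fall of Cyp2u1 was not tested. The 9 hepatocyte markers summed to 73092 to 78365 in propiconazole livers, 77596 to 80296 in triadimefon livers and 78690 to 81598 in controls. In RNA of whole liver, fewer cells of a type and less RNA per cell cannot be told apart.

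The values above are from the brighter of the 2 Cyp2u1 probe sets, 1453500_at. The dimmer, 1444960_at, lay near background on all arrays, between 5.25 and 6.85. Its values at day 30 were 5.85, 5.96 and 5.41 in propiconazole livers, 5.73, 5.25 and 5.92 in triadimefon livers and 6.53, 6.69 and 6.10 in control livers. All treated arrays were below background and below the 3 control arrays, of which 1 was also below background, but the changes of -0.70 ± 0.26 (adjusted p = 0.087) and -0.80 ± 0.26 (adjusted p = 0.071) did not pass in the fit on every probe set, where 4.52% and 2.15% of probe sets fell. Without the array with the Gapdh 3′ excess, these changes had an adjusted p of 0.067 for propiconazole and 0.049 for triadimefon.

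**Figure D3:**
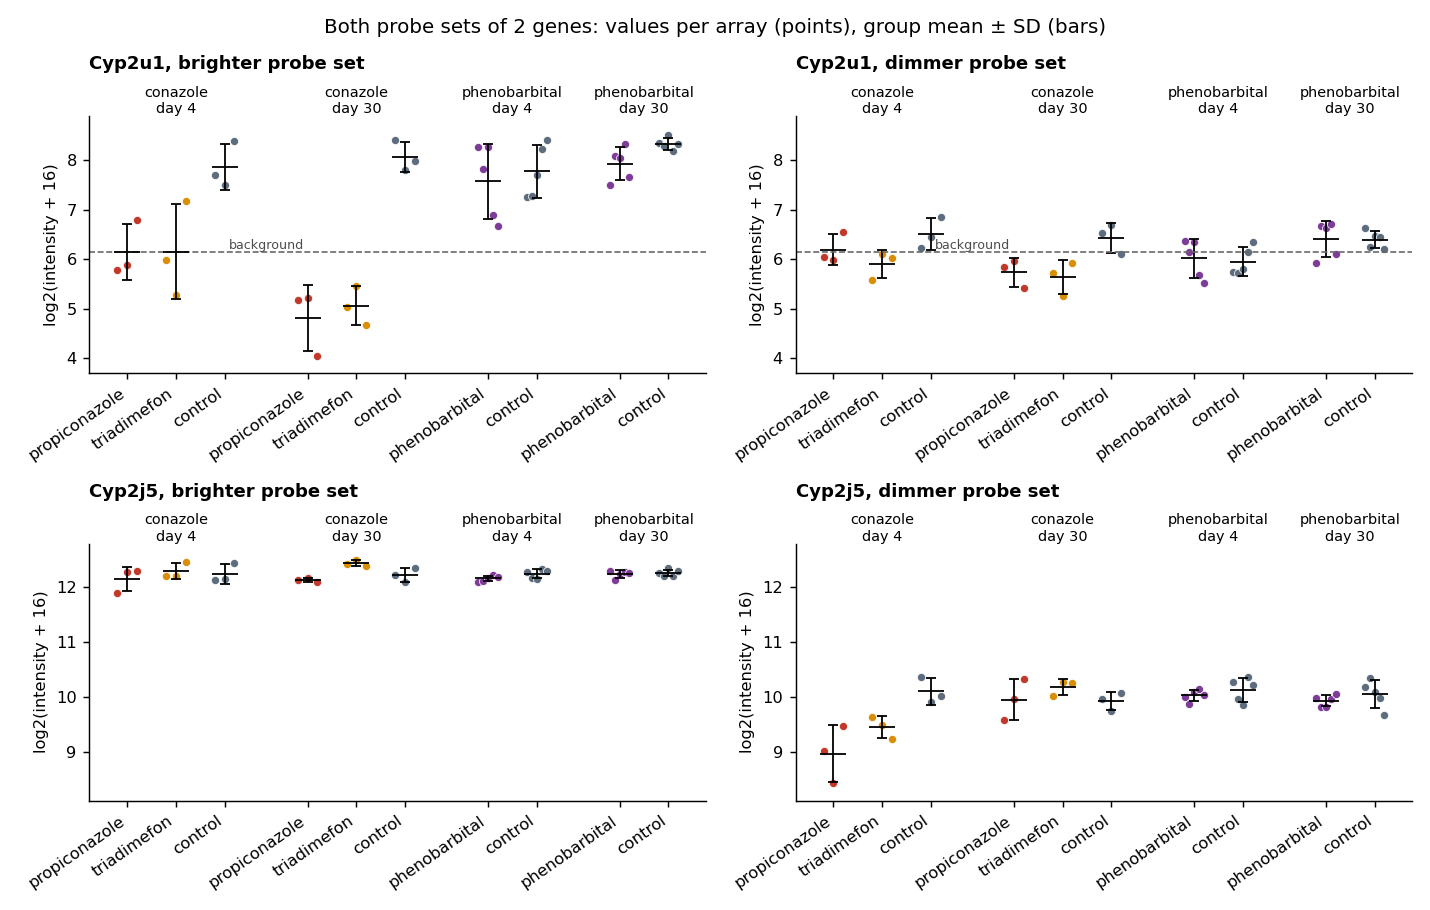
Both probe sets of Cyp2u1 (upper row, with the background of 6.15 dashed) and of Cyp2j5 (lower row) on each array (y axis, log2(intensity + 16), points, group mean ± SD as bars) in the 10 groups (x axis). The brighter Cyp2u1 probe set is lower under the conazoles. The dimmer one stays between 5.25 and 6.85 and lies below controls on all day 30 conazole arrays. The dimmer Cyp2j5 probe set lies below controls on all day 4 arrays of both conazoles, whereas the brighter one overlaps them.

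Cyp2g1 encodes a P450 known mainly from the olfactory mucosa and was above background on 23 of 38 liver arrays. It rose in phenobarbital livers at day 4. There the values were 7.78, 7.13, 8.18, 7.68 and 7.56 in phenobarbital livers and 5.51, 4.00, 5.95, 5.41 and 5.25 in control livers. All 5 treated arrays were above background and all 5 control arrays below it, so Cyp2g1 was at least 2.86-fold higher, with a fitted change of 2.44 ± 0.60 (adjusted p = 0.045). After 30 days they were 7.93, 7.48, 7.66, 6.81 and 8.28 in phenobarbital livers and 5.54, 6.31, 4.00, 5.87 and 4.20 in control livers, where 1 of 5 was above background. The groups did not overlap, and the change of 2.45 ± 0.60 lay outside the threshold (unadjusted p = 0.00028, adjusted p = 0.055). The day 30 minus day 4 difference of the phenobarbital change was 0.01 ± 0.85 (adjusted p = 1).

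The phenobarbital calls of Cyp2g1 lie close to the threshold. At day 4 the adjusted p was over 0.05, at most 0.14, when any of 9 of the 10 arrays was left out, with a change of 2.14 to 2.63. At day 30 the change had an adjusted p of 0.022 without the array with the Gapdh 3′ excess, which is in another experiment but enters the shared spread, and of 0.045 without phenobarbital control replicate 2, where the change was 2.73 ± 0.63. Leaving out any other of the 10 compared arrays gave an adjusted p of 0.058 to 0.21, and a replicate block gave 0.083.

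Under the conazoles the Cyp2g1 values were spread widely. At day 4 they were 7.90, 8.83 and 4.00 in propiconazole livers, 6.74, 6.89 and 5.60 in triadimefon livers and 6.40, 4.97 and 6.31 in control livers. At day 30 they were 6.56, 7.50 and 7.004 in propiconazole livers, 7.30, 5.13 and 6.56 in triadimefon livers and 6.60, 5.88 and 5.24 in control livers. The changes of 1.02 ± 0.77 and 1.12 ± 0.77 with propiconazole and 0.52 ± 0.77 and 0.43 ± 0.77 with triadimefon did not pass (adjusted p = 0.41, 0.41, 0.81 and 0.86). Without propiconazole day 4 replicate 3, the array at 4.00, Cyp2g1 was higher in propiconazole livers at day 4 by 2.48 ± 0.65 (adjusted p = 0.006), a value that still includes the array with the Gapdh 3′ excess, at 8.83. Without that array the change was 0.06 ± 0.79 (adjusted p = 1) in the fit on every probe set. The conazole changes minus the phenobarbital change, -1.33 and -2.02 at day 30, did not pass either (adjusted p = 0.57 for propiconazole and 0.41 for triadimefon), so a difference in Cyp2g1 between the compounds is not shown.

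Cyp2a5, the mouse coumarin hydroxylase that also oxidises nicotine, and Cyp2a4, a closely related steroid hydroxylase that is higher in female than in male mouse liver, were measured by the shared probe set 1422230_s_at. With propiconazole at day 30 its values were 13.28, 13.26 and 13.23, against 10.61, 10.99 and 10.45 in control livers. This was a rise of 2.57 ± 0.65 (5.95-fold, adjusted p = 0.011 over 34518 annotated probe sets, of which 4.11% rose), and it passed with any 1 array left out. The 3 treated arrays differed by an SD of 0.02, near the top of the scale.

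With phenobarbital at day 4 the shared probe set read 12.72, 12.48, 13.21, 12.19 and 12.45, against 10.11, 9.07, 11.40, 10.77 and 10.90 in control livers. This rise of 2.16 ± 0.50 (4.47-fold, adjusted p = 0.037, with 0.374% of all probe sets higher) did not pass when any of 7 of the 10 arrays was left out (adjusted p up to 0.13). At day 30 the values were 12.51, 12.29, 12.06, 11.17 and 12.66 in phenobarbital livers and 11.02, 11.61, 9.07, 10.68 and 9.19 in control livers, which overlap, and the change of 1.82 ± 0.50 did not pass (adjusted p = 0.16, with 0.295% of all probe sets higher).

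In the other conazole groups the shared probe set was higher on average without passing. At day 4 it read 13.32, 12.50 and 10.70 in propiconazole livers, 13.13, 13.15 and 11.96 in triadimefon livers and 10.84, 9.34 and 12.01 in control livers, with changes of 1.45 ± 0.65 and 2.02 ± 0.65 (adjusted p = 0.15 and 0.081, with 6.01% and 1.68% of all probe sets higher). At day 30 the triadimefon values were 13.09, 12.78 and 11.76, all above the control values, with a change of 1.86 ± 0.65 (adjusted p = 0.11, with 1.89% of all probe sets higher). Control animals of 1 group differed widely, with values of 9.34 to 12.01 at day 4 of the conazole experiment, and the SD within groups was 0.84. None of the differences between compounds passed: propiconazole minus triadimefon was -0.57 (95% interval -1.90 to 0.76) at day 4 and 0.71 (-0.61 to 2.04) at day 30.

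Cyp2a12, a steroid hydroxylase that in mice also rehydroxylates secondary bile acids, did not pass in any comparison. Its changes ran over -0.38 to 0.70, with standard errors of 0.47 to 0.61. In triadimefon livers at day 4 the values were 12.76, 10.43 and 11.26, against 11.91, 11.12 and 12.55 in control livers. In phenobarbital livers at day 4 they were 12.62, 11.69, 12.99, 12.42 and 11.72, against 12.13, 10.29, 10.76, 12.38 and 12.39 in control livers. Animals of 1 group thus differed widely, and the within-group SD of 0.78 exceeded that of 98.8% of the 1492 genes with a mean over 10. The widest 95% intervals of its changes reached -1.62 and 1.66.

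Cyp2f2, the enzyme that activates naphthalene and styrene in mouse airway club cells, was nearly constant. Its 38 arrays ran over 13.10 to 13.34. Its 6 changes lay between -0.0029 and 0.08, with 95% intervals inside -0.10 to 0.15, and none passed. The values stand near the top of the scale, where quantile normalization compresses differences, and the within-group SD of 0.04 was lower than that of all but 0.737% of the genes with a mean over 10.

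**Figure D4:**
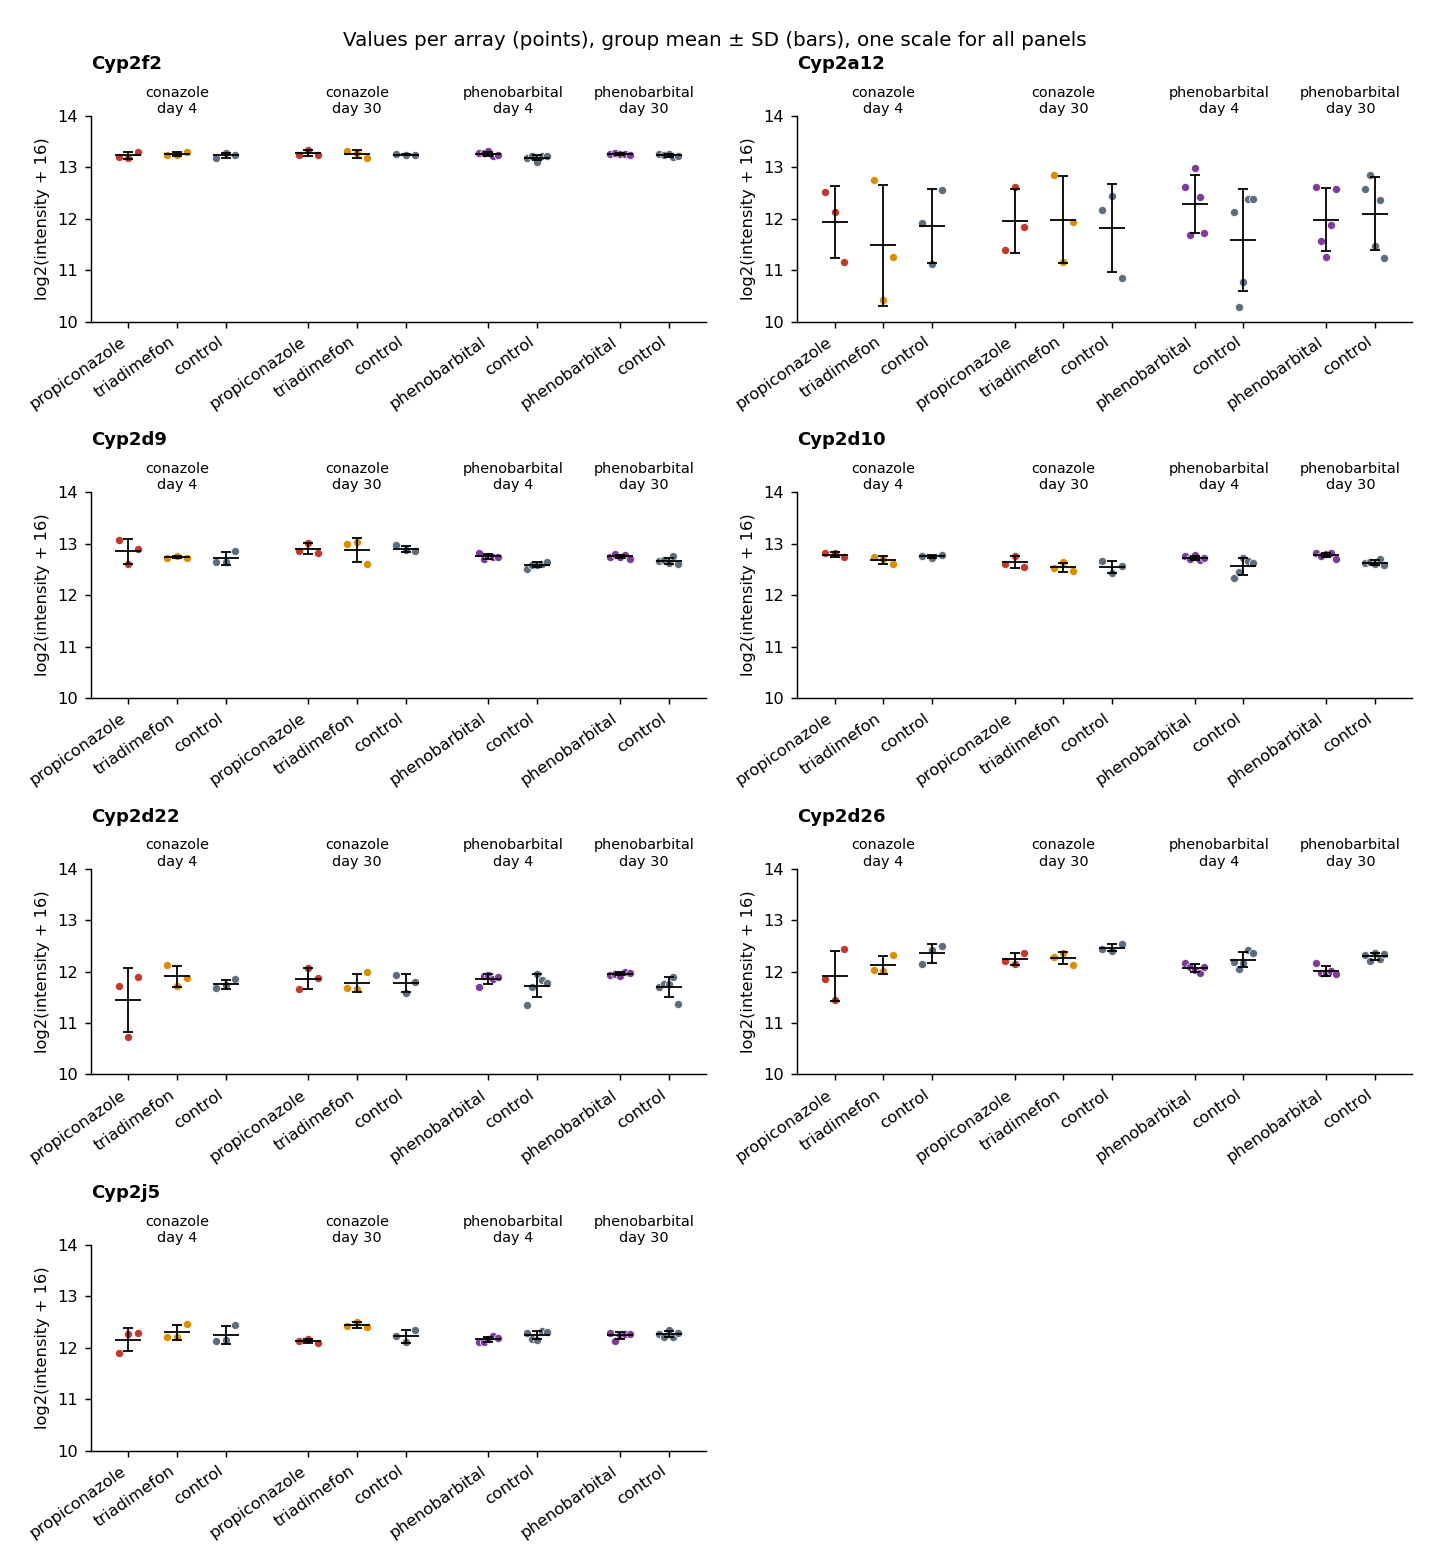
Values of Cyp2f2, Cyp2a12, Cyp2d9, Cyp2d10, Cyp2d22, Cyp2d26 and Cyp2j5 on each array (y axis, log2(intensity + 16), the same scale in all panels, points, group mean ± SD as bars) in the 10 groups (x axis). Cyp2f2 stays between 13.10 and 13.34, whereas Cyp2a12 spreads over 10.29 to 12.99 within treated and control groups alike.

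Among Cyp2d9, Cyp2d10, Cyp2d22 and Cyp2d26, whose CYP2D enzymes oxidise steroids and many basic drugs, Cyp2d26 alone passed in a comparison with controls. In propiconazole livers at day 4 its values were 11.85, 11.46 and 12.43, against 12.14, 12.42 and 12.49 in control livers, which overlap. The fall of -0.44 ± 0.14 (adjusted p = 0.032) depended on replicate 2, the array with the Gapdh 3′ excess: without it the change was -0.21 ± 0.13 and did not pass (adjusted p = 0.32). It also did not pass without control replicate 2 (adjusted p = 0.1), control replicate 3 (0.12) or propiconazole replicate 1 (0.064). At day 30 Cyp2d26 read 12.20, 12.14 and 12.37 in propiconazole livers, 12.29, 12.36 and 12.13 in triadimefon livers and 12.45, 12.41 and 12.54 in control livers. It read 12.17, 11.97, 11.97, 12.001 and 11.95 in phenobarbital livers and 12.32, 12.21, 12.36, 12.25 and 12.33 in their controls at day 30. All day 30 treated arrays were below their controls, but the changes of -0.22 ± 0.14, -0.20 ± 0.14 and -0.28 ± 0.11 did not pass (adjusted p = 0.34, 0.47 and 0.46).

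Cyp2d9, the testosterone hydroxylase of male mouse liver, had changes of -0.02 to 0.17 and ran over 12.51 to 13.06 on all arrays. In phenobarbital livers at day 4 it read 12.82, 12.71, 12.77, 12.73 and 12.74, against 12.51, 12.59, 12.59, 12.61 and 12.64 in control livers. The groups did not overlap, but the change of 0.17 ± 0.07 did not pass (adjusted p = 0.38). Without the array with the Gapdh 3′ excess, Cyp2d9 rose in propiconazole livers at day 4 by 0.26 ± 0.08 (adjusted p = 0.046), whereas with it the change was 0.14 ± 0.09 (adjusted p = 0.34).

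Other genes with male-biased expression moved while Cyp2d9 did not pass. With propiconazole at day 30, 5 of the 11 measured male-biased liver genes fell and 0 rose (median change -1.26). Among them Susd4 read 4.73 ± 0.26 against 9.44 ± 0.34 in controls (SD, n = 3 each), and Hsd3b5, a steroid reductase of male liver, read 7.90 ± 3.001, with 2 of 3 arrays above background, against 11.98 ± 0.17 (limma adjusted p = 0.00071). With triadimefon at day 30, 3 of 11 fell and 0 rose. Cyp2d9 changed by 0.00 (95% interval -0.18 to 0.18) and -0.02 (-0.20 to 0.16) in the same livers. Its mean was higher than that of 99.5% of genes, near the top of the scale, where quantile normalization compresses differences. Of 12 measured female-biased genes, 4 rose and 1 fell in propiconazole livers at day 30, among them Cyp2b13 and Cyp2b9, which also count among the other CYP2 enzymes. Cyp2b13 averaged 9.54 ± 1.08 in propiconazole livers, against 5.47 ± 0.25 in controls, where 0 of 3 arrays were above background (SD, n = 3 each; limma adjusted p = 1.5e-05). Cyp2b9 averaged 9.70 ± 0.97, against 5.85 ± 1.26 in controls, where 1 of 3 arrays was above background (limma adjusted p = 0.00039). Both genes were also higher in phenobarbital livers at day 30. Cyp2b9 changed by 3.14 ± 0.54 there (limma adjusted p = 0.0013) and Cyp2b13 by 2.89 ± 0.43 (adjusted p = 0.00017). Among the 11 male-biased genes, 1 was higher with phenobarbital at day 30 and 0 were lower.

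Cyp2d10 had changes of -0.07 to 0.17 and Cyp2d22 of -0.31 to 0.25, and neither passed in any comparison with controls. In phenobarbital livers Cyp2d10 averaged 12.73 ± 0.04 at day 4 and 12.78 ± 0.05 at day 30, against 12.56 ± 0.16 and 12.63 ± 0.04 in controls (SD, n = 5 each). These changes of 0.17 ± 0.06 and 0.15 ± 0.06 had unadjusted p-values of 0.0079 and 0.016 and adjusted p-values of 0.25 and 0.5. The low Cyp2d22 value in propiconazole livers at day 4 (11.71, 10.73 and 11.89, against 11.68, 11.73 and 11.85 in controls) came from the array with the Gapdh 3′ excess. Without propiconazole replicate 3, but with that array, Cyp2d22 passed at -0.53 ± 0.19 (adjusted p = 0.038). Without that array its change was 0.05 ± 0.15 (adjusted p = 0.94) in the fit on every probe set. Its other probe set, 1419040_at, had changes of -0.22 to 0.36, none of which passed. In phenobarbital livers at day 30 both Cyp2d22 probe sets lay above all control arrays without passing. The brighter read 11.91 to 11.99 against 11.37 to 11.90, and the other 11.59 to 11.69 against 10.65 to 11.58. Arrays did not overlap for 4.21% of all genes in that comparison. The CYP2D genes are close relatives, with 84.5% of 297 aligned bases the same in the promoter windows of Cyp2d9 and Cyp2d10, and cross-hybridisation between their probe sets was not tested.

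Cyp2j5 makes epoxides of arachidonic acid in mouse kidney and liver. Its brighter probe set, 1417531_at, had changes of -0.09 to 0.22 and did not pass against controls. At day 30 it read 12.14, 12.18 and 12.10 in propiconazole livers, 12.43, 12.50 and 12.40 in triadimefon livers and 12.22, 12.10 and 12.36 in control livers. Propiconazole minus triadimefon was -0.31 ± 0.09 (adjusted p = 0.045), and Cyp2j5 was the only 1 of the 9 genes to pass there, where 1.68% of all genes were lower. The call did not pass with any 1 of the 6 arrays left out (adjusted p 0.069 to 0.14). At day 4 none of the 9 passed between the conazoles (1.84% of all genes), and 1 of 9 had an unadjusted p under 0.05, beside 3449 of all genes. The conazoles are both triazoles but were fed at different doses.

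The dimmer Cyp2j5 probe set, 1417532_at, moved at day 4. It read 9.002, 8.42 and 9.47 in propiconazole livers, 9.63, 9.49 and 9.22 in triadimefon livers and 10.36, 9.91 and 10.02 in control livers, with no overlap between treated and control arrays. The changes were -1.13 ± 0.19 with propiconazole (2.19-fold lower, adjusted p = 0.00034) and -0.65 ± 0.19 with triadimefon (adjusted p = 0.056), while 6.12% and 1.42% of probe sets fell. Without the array with the Gapdh 3′ excess they were -0.86 ± 0.19 (adjusted p = 0.0043) and -0.65 ± 0.17 (adjusted p = 0.018). At day 30 the changes were 0.02 and 0.25 and did not pass, and the brighter probe set changed by -0.09 and 0.06 at day 4. For the dimmer probe set, the day 30 minus day 4 difference of the propiconazole change was 1.16 ± 0.27 (adjusted p = 0.024). The propiconazole change minus the phenobarbital change at day 4 was -1.03 ± 0.24 (adjusted p = 0.028). Both differences include the array with the Gapdh 3′ excess, at 8.42, and are not given without it. The share of all probe sets passing for them is not given either. The 2 probe sets disagree, and the data do not say which transcript each measures.

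At the level of genes, represented by the brighter probe sets, none of the 9 passed for the day 30 change minus the day 4 change of any compound (1.95% of all genes for propiconazole, 1.31% for triadimefon and 0.00564% for phenobarbital). There 1, 1 and 0 of 9 had an unadjusted p under 0.05, beside 2877, 2487 and 481 of all genes. In untreated livers, day 30 minus day 4 gave 0 of 9 past the threshold in the conazole experiment (5.32% of all genes) and 0 of 9 in the phenobarbital experiment (0% of all genes). At an unadjusted p under 0.05 stood 2 of 9 in the conazole experiment, beside 3474 of all genes, and 0 of 9 in the phenobarbital experiment, beside 668. The untreated changes lay between -0.20 and 0.56.

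The rest of the CYP2 family was counted in the same livers, and no difference in frequency was tested. Of 25 other CYP2 enzymes measured, 7 rose and 0 fell in propiconazole livers at day 4, 9 rose and 2 fell at day 30, 6 rose and 0 fell in triadimefon livers at day 4, and 6 rose and 2 fell at day 30. In phenobarbital livers 7 rose at day 4 and 9 at day 30, and 0 fell. The largest rises were those of the CYP2C and CYP2B enzymes Cyp2c55, Cyp2c65 and Cyp2b10, with Cyp2c55 at 12.65 ± 0.44 in propiconazole livers at day 4, against 7.07 ± 0.47 in controls (SD, n = 3 each). The median change of the 25 was between -0.02 and 0.17 in the 6 comparisons, and the median of the 9 described genes between -0.0029 and 0.14. Without the array with the Gapdh 3′ excess, 6 of the 25 rose and 1 fell with propiconazole at day 4.

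Other CYP2D genes on chromosome 15 passed at day 30. Cyp2d40, which lies next to Cyp2d26, changed by -1.31 ± 0.42 with propiconazole and by -1.69 ± 0.42 with triadimefon at day 30 (adjusted p = 0.042 and 0.016). Cyp2d12, of the same cluster, was higher in propiconazole than in triadimefon livers at day 30 by 1.72 ± 0.34 (adjusted p = 0.003). Against controls it rose with propiconazole at day 30 by 1.62 ± 0.34 (limma adjusted p = 0.0017). With phenobarbital it rose by 1.21 ± 0.26 at day 4 (adjusted p = 0.018) and by 1.65 ± 0.26 at day 30 (adjusted p = 0.00042). The control means of Cyp2d12 there, 5.52 to 5.86, lay below background. With triadimefon it did not pass. Cyp2c68, a CYP2C enzyme that lies in neither cluster, changed by -1.05 with propiconazole (adjusted p = 0.00054) and by -0.68 with triadimefon (adjusted p = 0.032) at day 30.

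The proteins that pass electrons to these enzymes and the factors that keep them expressed were looked at beside them. Cyb5a, which encodes cytochrome b5, rose in all 6 comparisons, by 0.20 to 0.34. Of the 4 measured electron partners, 2 rose with phenobarbital at day 4 and 1 rose in each other comparison, and 1 fell, Cyb5b in propiconazole livers at day 30 (-0.39 ± 0.11, adjusted p = 0.02). When the array with the Gapdh 3′ excess was left out, 3 of 4 rose with propiconazole and 2 with triadimefon at day 30. Of 20 measured regulators of constitutive liver P450 genes, 5 fell with propiconazole at day 4 and 3 at day 30, and none rose. In triadimefon and phenobarbital livers none passed with all arrays in the fit. Without the array with the Gapdh 3′ excess, 6 fell and 1 rose with propiconazole at day 30, and 1 and 3 fell with triadimefon at days 4 and 30. Nr1i3, which encodes CAR, changed by -2.20 ± 0.59 at day 4 of propiconazole (adjusted p = 0.012), with 2 of 3 treated arrays above background, and by -0.66 ± 0.22 without the array with the Gapdh 3′ excess (adjusted p = 0.052). Cebpa, a factor of hepatocyte gene expression, changed by -1.24 ± 0.23 (adjusted p = 0.00071) and, without that array, by -0.68 ± 0.12 (adjusted p = 0.00075), and 4 of the 20 then fell.

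Hepatocytes around the portal and the central vein carry different P450 genes, so markers of both zones were set beside them. Of 12 periportal markers, 3 fell with propiconazole at day 4 and 3 at day 30, 1 fell with triadimefon at each day, and 0 rose in any comparison with all arrays in the fit. Without the array with the Gapdh 3′ excess, 1 rose with triadimefon at day 30. Pigr, which encodes the receptor that carries antibodies into bile, changed by -1.50 ± 0.28 at day 4 and by -1.13 ± 0.28 at day 30 of propiconazole (adjusted p = 0.00081 and 0.0088). Its day 4 change without the array with the Gapdh 3′ excess was -0.88 ± 0.20 (adjusted p = 0.005). Of 15 pericentral markers, 4 fell and 0 rose with propiconazole at day 30, among them Oat, an aminotransferase of ornithine (-1.53 ± 0.31, adjusted p = 0.0015), while 2 rose and 1 fell at day 4. With that array left out, 7 fell and 1 rose at day 30, and 1 rose and 1 fell at day 4. With triadimefon 0 of 15 passed with all arrays in the fit, and 1 rose at day 4 without that array. With phenobarbital 2 rose at day 4 and 3 at day 30, including Cyp1a2, which oxidises caffeine, by 0.75 and 0.65 (adjusted p = 0.0024 and 0.014). In these livers Cyp2f2, which is itself known as periportal, changed by at most 0.08.

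Some genes shared their variation between animals. Deviations from group means were correlated for the 45 pairs among the 9 genes and the shared probe set in 16 control animals, and 2 pairs passed by both r and rho. Cyp2g1 and the shared probe set of Cyp2a5, its neighbour on chromosome 7, and Cyp2a4 had a Pearson r of 0.87 (permutation p = 0.00076, adjusted over the 45 pairs 0.017) and a Spearman rho of 0.76 (permutation p = 0.0028, adjusted 0.032). The r was 0.69 in the 6 conazole controls and 0.94 in the 10 phenobarbital controls, and 0.80 without the 2 animals farthest from the median. Cyp2g1 was below background in most of these controls. Cyp2d10 and Cyp2d22, separated by Cyp2d11 on chromosome 15, had an r of 0.83 (permutation p = 5e-05, adjusted 0.0022) and a rho of 0.86 (permutation p = 0.00016, adjusted 0.0072), with 0.89 and 0.81 within the 2 experiments and 0.67 without the 2 farthest animals. In 22 treated animals 0 of 45 pairs passed by r, with 0.73 for the first pair (permutation p = 0.028, adjusted 0.26) and -0.10 for the second (permutation p = 0.69, adjusted 0.81). By rho alone, 3 pairs passed in treated animals, each at an adjusted permutation p of 0.043: the first pair (0.75), Cyp2a12 with Cyp2g1 (0.68, with an r of 0.56) and Cyp2f2 with Cyp2u1 (0.73, with an r of 0.69). By rho alone, 3 pairs passed in controls: Cyp2d9 with Cyp2d10 (0.64, adjusted permutation p = 0.045), Cyp2d9 with Cyp2d22 (0.76, adjusted 0.032) and Cyp2d26 with Cyp2j5 (0.82, adjusted 0.032). By r these had adjusted permutation p-values of 0.085, 0.054 and 0.054. All values of an animal share its array.

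**Figure D5:**
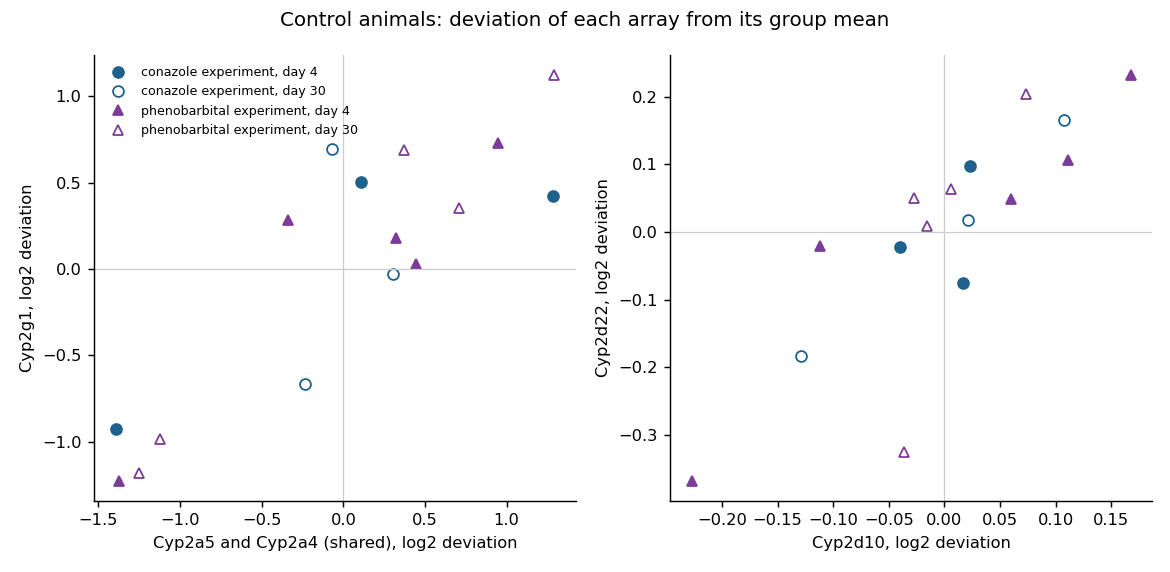
Deviation of each of the 16 control arrays from its group mean for Cyp2g1 against the probe set shared by Cyp2a5 and Cyp2a4 (left) and for Cyp2d22 against Cyp2d10 (right), both axes in log2 intensity, with circles for the conazole and triangles for the phenobarbital experiment, filled for day 4 and open for day 30. Animals high in one gene of a pair were high in the other, at an r of 0.87 and 0.83.

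The genes whose pattern over 37 arrays was most like that of each gene were ranked by Pearson r among 8968 genes, on values minus the mean of their own controls. For Cyp2u1 these were Ttc39c (r = 0.92) and Ppm1m (0.90), and for Cyp2d26 Tmem250-ps (0.90) and Slc25a29 (0.84). For Cyp2g1 they were Cacul1 (0.76) and Pgap2 (0.75), and for Cyp2d10 Gstm1, a glutathione transferase (0.73), and Tbcel (0.73). Cyp2a12 had no close match, with Tgs1 (0.56) and Fcho1 (0.56) at the top. The arrays share groups and treatment, so these values describe the 37 arrays and carry no test.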

How the data were processed

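Liver RNA of male CD-1 mice was measured on Affymetrix mouse genome arrays. Per the labels' protocols, Tri Reagent and RNeasy columns gave the RNA, of which 4 ug went into biotin labelling with an Enzo kit. The authors deposited linear intensity values for every array, 21.15% of them below 0. Their summarising software is not given in the sources used. Precision is limited by the number of arrays. The 38 arrays were quantile normalized, values below 0 set to 0, and log2(value + 16) taken. Of 45101 probe sets, 34958 had 1 gene symbol, 932 several and 9211 were unlisted and are unnamed here. A gene was represented by its brightest probe set with 1 symbol, and 465 constant genes were left out. One model with a mean per group was fitted with limma 3.58.1 (R 4.3.3, intensity trend) to 17729 genes, and two-sided p-values were adjusted by Benjamini-Hochberg. The shared Cyp2a5 and Cyp2a4 probe set and the dimmer probe sets come from fits on all probe sets, a step added after seeing the data. Where no array of a group exceeded background, the fold is given as a bound, computed with that group's values raised to background where they lay under it. Correlations used 100000 permutations of animals within groups. The fit was tested on simulated data. Named from each gene list were up to the 2 largest rises and falls per comparison, Cyp2b10 and Cyp2c55 as a check of exposure, and the 2 genes most like each gene. The genes and lists were chosen with earlier results of these data known. Alternatives were values as deposited, median scaling, a pseudocount of 64, genes above background only, all probe sets, only the arrays compared, a replicate block, and leaving out arrays. Labels call the arrays biological replicates.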

Additional observations from a re-analysis of the deposited data

Results flagged for a closer look

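At 2 places 1 array lay far from the others of its group, of 52 combinations of a probe set and a group of 5 that were tested, and chance gives about 1 in 20. Cyp2d26 in phenobarbital livers at day 30 was highest on replicate 1, at 12.17, against 11.95 to 12.001 on the other 4 arrays. The dimmer Cyp2d22 probe set in phenobarbital controls at day 30 was lowest on replicate 5, at 10.65, against 11.39 to 11.58 on the others.

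Among the brighter probe sets, the effects of 2 compounds differed in 3 cases by a test of the difference. For Cyp2u1 at day 30, the propiconazole change minus the phenobarbital change was -2.85 ± 0.54 (limma, adjusted p = 0.0059) and the triadimefon change minus the phenobarbital change was -2.60 ± 0.54 (adjusted p = 0.023). For Cyp2j5 at day 30, propiconazole minus triadimefon was -0.31 ± 0.09 (adjusted p = 0.045), with lower values on 3 of 3 propiconazole arrays than on any triadimefon array. For the dimmer Cyp2j5 probe set, the propiconazole change minus the phenobarbital change at day 4 was -1.03 ± 0.24 (adjusted p = 0.028). That value includes the array with the Gapdh 3′ excess and is not given without it.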

How the results depend on the processing

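The number of the 9 genes past the threshold moved with several settings. With values as deposited, 0 passed for triadimefon at day 4 and 1 for phenobarbital at day 30 (Cyp2g1). In that setting 68 genes were higher and 13 lower of 17722 with phenobarbital at day 30. It also gave 3 between the conazoles (Cyp2d22, Cyp2d26 and Cyp2j5, all at day 4) and 1 for conazole against phenobarbital. With median scaling, 1 passed for propiconazole at day 4 (1300 genes higher and 981 lower of 17722) and 1 for phenobarbital at day 30 (64 higher and 12 lower). Between the conazoles 3 passed at day 4, all alike in size: Cyp2d10, Cyp2d9 and Cyp2f2, by 0.53, 0.53 and 0.50. For conazole against phenobarbital 1 passed, and 1 in untreated livers (Cyp2d10). Shares of all genes under the other settings are not given for comparisons between compounds or in untreated livers, so these counts say little about the 9 genes. With a pseudocount of 64 or only genes above background, 1 passed for phenobarbital at day 30 (Cyp2g1), as without the array with the Gapdh 3′ excess, normalized again or not (1 each). Without that array 95 of 17729 genes were higher and 28 lower with phenobarbital at day 30, against 70 and 15 with it. Counts of all genes are not given for the pseudocount of 64, for genes above background or for the arrays normalized again. With only the arrays compared, 0 passed for propiconazole and 0 for triadimefon at day 4, 2 for phenobarbital at day 4 (with Cyp2d9), 1 for phenobarbital at day 30 (Cyp2d26) and 0 between the conazoles. At day 4 that setting called 7 genes higher and 1 lower of 17729 with propiconazole and 0 with triadimefon, so there it bears little on the 9. With phenobarbital it called 217 genes higher and 111 lower at day 4, and 150 higher and 87 lower at day 30. Values as deposited shifted the median of all genes at day 4 by -0.16 with propiconazole (221 higher, 2377 lower) and 0.17 with triadimefon (1544 higher, 114 lower). With all 33618 probe sets tested, most of a gene's probe sets had to pass. Then 1 gene passed for propiconazole at day 4 and 0 in the other comparisons that had calls. Both probe sets of Cyp2u1 and Cyp2j5 had to pass. Cyp2g1 has 1 probe set, so that rule does not account for the lost call in phenobarbital livers at day 4.

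With a replicate block, 0 passed for phenobarbital at day 4 (Cyp2g1 2.44, adjusted p = 0.066; shared probe set 2.16, 0.071), and it changed no other call of these genes. Replicate numbers did not pair the arrays: same-numbered arrays correlated at -0.10 to 0.16 over 28 pairs, 4 of them over 0.1.

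Leaving out 1 array gave 1 to 4 for propiconazole at day 4, 1 to 1 at day 30, 0 to 1 for triadimefon at day 4, 1 to 1 at day 30, 0 to 1 for phenobarbital at each day, 0 to 4 between the conazoles, 1 to 4 for conazole against phenobarbital, and 0 to 0 between days and in untreated livers. The count of 4 came without propiconazole day 4 replicate 3. Shares of all genes are not given for these counts. Counted over called changes and other settings together, not over genes, 66 checks kept their side of the threshold, 14 did not, and none reversed. Values as deposited moved the Cyp2u1 fall with triadimefon at day 4 to an adjusted p of 0.057. The causes were not tested. Signal over background limits Cyp2u1 in day 30 conazole livers and Cyp2g1 in day 4 phenobarbital controls to bounds.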
